A study of Mus musculus with 6 samples.

Results

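Fc gamma receptors are cell surface proteins that bind the constant part of immunoglobulin G, and they were compared here in the testes of 3 inbred mouse strains. The genes taken were Fcgr1, Fcgr2b, Fcgr3 and Fcgr4, the shared signalling chain Fcer1g and the neonatal Fc receptor Fcgrt. A probe set, the group of probes that together measure one transcript, was included where the platform annotation gives 1 of these symbols alone. This gave 11 probe sets on 6 genes, out of 34945 probe sets with 1 symbol on 18193 genes. Fcgr2b had 5 probe sets, Fcgr1 had 2 and the other genes had 1 each. The genes were chosen with their intensities by strain already known, so their strain differences are described without a test. Tests are given for other genes, namely those of the receptor pathway, of immune cells and of the neighbouring stretches of chromosome.

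Testis total RNA came from C57BL/6, AKR/N and MRL/MpJ+/+ mice (MRL/MpJ below), all 8 weeks old, with 2 mice per strain and 1 array per mouse, numbered 1 and 2 by replicate. The labels name no treatment, transgene or genetic change in any strain, and C57BL/6 serves as the common point of comparison. Values are linear intensities as deposited, with the same trimmed mean on each array. All 14 testis markers on the platform were brighter than the 40th percentile on each of the 6 arrays. Some of them differed between strains, as given below. Precision is limited by the small number of arrays. In bulk tissue fewer cells of a type and less RNA per cell cannot be told apart.

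Receptors of this family link antibodies to white blood cells. Fcgr1 binds single immunoglobulin G molecules with high affinity, while Fcgr3 and Fcgr4 bind antibody complexes with lower affinity. All 3 activate the cell through Fcer1g, whose tail carries the tyrosine motif that recruits the kinase Syk. Fcgr2b carries an inhibitory motif instead, which recruits the phosphatase Inpp5d and dampens the response. Fcgrt is structurally related to MHC class I proteins. It pairs with B2m and returns immunoglobulin G and albumin from endosomes to the surface, in endothelium among other cells. In the testis the other receptors are known chiefly from the macrophages of the interstitium.

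Fcgr2b, Fcgr4 and Fcgr3 lie in this order within a short stretch of chromosome 1, with Fcer1g further along it, while Fcgr1 is on chromosome 3 and Fcgrt on chromosome 7. The sequence around a listed start of transcription is shown for the 3 activating receptors and for the inhibitory receptor Fcgr2b, since the strain difference below falls on 1 activating receptor of this cluster. Each window runs from 120 bases before to 30 bases after a RefSeq start in GRCm38.p6, the assembly of C57BL/6J. It lies at chr1:171059374-171059523 on the minus strand for Fcgr3 and at chr1:171018806-171018955 on the plus strand for Fcgr4. That of Fcgr1 is at chr3:96293940-96294089 on the minus strand and that of Fcgr2b at chr1:170976042-170976191 on the minus strand. For Fcgr3 the promoter table lists 2 starts, of which the one further upstream was used. The annotated Fcgr3 gene reaches further upstream than both, so its window lies inside the gene. Capitals mark the letters CTTCCTCT, the reverse complement of AGAGGAAG, a form of the purine-rich box bound by the myeloid factor PU.1.
Fcgr3: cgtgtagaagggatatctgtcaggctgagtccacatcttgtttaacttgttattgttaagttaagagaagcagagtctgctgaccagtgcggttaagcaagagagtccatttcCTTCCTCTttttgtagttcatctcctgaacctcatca
Fcgr4: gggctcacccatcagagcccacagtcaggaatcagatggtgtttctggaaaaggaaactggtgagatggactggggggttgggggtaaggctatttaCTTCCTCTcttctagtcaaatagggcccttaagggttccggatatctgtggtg
Fcgr1: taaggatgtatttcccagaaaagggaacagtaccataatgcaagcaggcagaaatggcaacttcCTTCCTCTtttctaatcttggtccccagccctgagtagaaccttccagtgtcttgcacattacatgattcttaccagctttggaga
Fcgr2b: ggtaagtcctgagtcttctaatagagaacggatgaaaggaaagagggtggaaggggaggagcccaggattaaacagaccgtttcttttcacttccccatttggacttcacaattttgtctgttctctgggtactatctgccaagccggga

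The motif begins 7 bases before the start in Fcgr3, 23 in Fcgr4 and 56 in Fcgr1. Both strands of the full 300-base windows were searched, and the motif was chosen after the sequences had been read. Of the 6 genes, Fcgr1, Fcgr3 and Fcgr4 held it, against 5.22% of 27025 genes (4.55% of 32851 windows). The shorter core GAGGAA, which lies within it, was found in the same 3 genes and in 31.3% of all genes. These are C57BL/6J letters, and no AKR/N or MRL/MpJ sequence was used, so the windows show nothing of how the strains differ. Whether the motif bears on the values below was not tested.

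Fcgr3, the low-affinity activating receptor also called CD16, carried the largest strain difference of the 6 genes. On its probe set 1448620_at the intensity was 152 and 145 units in the C57BL/6 testes, 247 and 225 units in AKR/N, and 649.7 and 684 units in MRL/MpJ. The strains did not overlap, with C57BL/6 lowest, AKR/N between and MRL/MpJ highest. The means were 148 ± 4.63, 236 ± 15.7 and 667 ± 24.2 units (SD, n = 2 each). MRL/MpJ stood 4.49-fold above C57BL/6 and 2.82-fold above AKR/N, and AKR/N 1.59-fold above C57BL/6. As differences of log2(intensity + 16), the scale used for all differences below, these were 2.05, 1.44 and 0.62, each with a standard error (SE) of 0.0936. The added 16 units keep dim probe sets from giving large folds and make the differences somewhat smaller.

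Among the 29692 probe sets tested, those with at least 2 arrays above the 40th percentile, the Fcgr3 difference ranked 31 from the top in MRL/MpJ against C57BL/6 and 78 in MRL/MpJ against AKR/N. It ranked 1262 in AKR/N against C57BL/6. The same rising order without overlap, C57BL/6 below AKR/N below MRL/MpJ, was seen on 1140 of the tested probe sets (3.84%). Leaving out any 1 array kept the difference between 2.02 and 2.09 in MRL/MpJ against C57BL/6, between 1.373 and 1.501 in MRL/MpJ against AKR/N, and between 0.55 and 0.68 in AKR/N against C57BL/6.

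**Figure D1:**
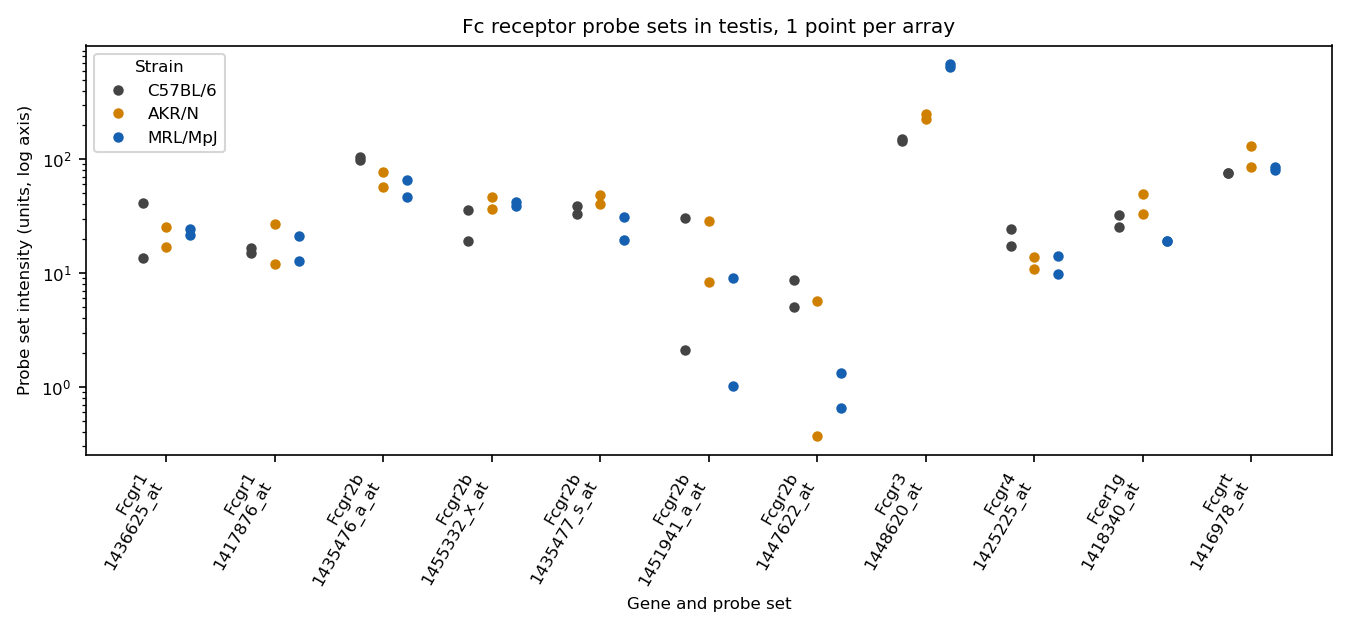
Intensity of the 11 Fc receptor probe sets on a log axis, 1 point per array, coloured by strain. On Fcgr3 the MRL/MpJ arrays lie at 649.7 and 684 units, above AKR/N at 225 and 247 and C57BL/6 at 145 and 152, while the other probe sets lie at or below 131 units on all arrays.

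The other activating receptors did not share this pattern. Fcgr4 stood at 17.4 and 24.4 units in C57BL/6 testes, 10.8 and 13.9 in AKR/N testes and 14.1 and 9.85 in MRL/MpJ testes. Both C57BL/6 arrays were above the arrays of the other strains, with differences of -0.39 (SE 0.233) in MRL/MpJ and -0.38 in AKR/N, but 1 of the 6 arrays reached the 40th percentile. Fcgr4 was therefore not among the probe sets tested, and its differences lie at the dim end of the arrays.

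Fcgr1, the high-affinity receptor, was dim and its arrays overlapped in all 3 comparisons. Probe set 1436625_at gave 13.7 and 41.5 units in C57BL/6 testes, 16.9 and 25.3 in AKR/N testes and 24.6 and 21.5 in MRL/MpJ testes. Probe set 1417876_at gave 14.9 and 16.7, 11.99 and 27.2, and 12.7 and 21.1 units in the same order. The differences lay between -0.16 and 0.13, within their SE of 0.313 and 0.296.

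Fcer1g, the chain through which Fcgr1, Fcgr3 and Fcgr4 signal, did not follow Fcgr3. Its intensity was 32.1 and 25.6 units in C57BL/6 testes, 49.4 and 33.1 in AKR/N testes and 19.1 and 19.2 in MRL/MpJ testes. MRL/MpJ, highest for Fcgr3, was lowest for Fcer1g, and none of the 3 strains overlapped. However, the MRL/MpJ readings were dim, at percentiles 41.38 and 40.85 of their arrays, just above the 40th used as filter. AKR/N array 2, at 33.1 units, was also close to C57BL/6 array 1, at 32.1. The differences were -0.35 in MRL/MpJ against C57BL/6, 0.34 in AKR/N against C57BL/6 and -0.69 in MRL/MpJ against AKR/N (SE 0.225). That of AKR/N against C57BL/6 was 0.14 without AKR/N array 1 and 0.55 without AKR/N array 2.

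The inhibitory receptor Fcgr2b gave mixed readings. Its brightest probe set, 1435476_a_at, read 104 and 97.6 units in C57BL/6 testes, 77.3 and 56.7 in AKR/N testes and 65.3 and 47.0 in MRL/MpJ testes. C57BL/6 was above both other strains without overlap, with differences of -0.71 for MRL/MpJ and -0.50 for AKR/N (SE 0.178), while AKR/N and MRL/MpJ overlapped. Without AKR/N array 2 the difference for AKR/N was -0.32. On this probe set the strain with the highest Fcgr3, MRL/MpJ, had the lowest mean, at 56.1 ± 12.9 against 100.9 ± 4.66 units in C57BL/6.

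The other Fcgr2b probe sets did not all repeat this. In MRL/MpJ against C57BL/6, 4 of the 5 differences were below 0 and 1455332_x_at was above it, with a range from -0.71 to 0.41. In AKR/N against C57BL/6, 3 were above 0 and 2 below, from -0.50 to 0.43, while in MRL/MpJ against AKR/N all 5 were below 0, from -0.68 to -0.01. Averaged over all 5 probe sets, Fcgr2b differed by -0.31 in MRL/MpJ and by 0.01 in AKR/N, each against C57BL/6. Probe set 1435477_s_at read 38.6 and 32.8 units in C57BL/6 testes, 40.3 and 48.1 in AKR/N testes and 30.8 and 19.5 in MRL/MpJ testes. By the platform's naming, its ending _s marks probes shared by several transcripts and the ending _x marks probes that may bind unrelated ones. The probe sets 1451941_a_at and 1447622_at were dim, above the 40th percentile on 2 arrays and on 0 arrays.

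Fcgrt, the neonatal receptor, differed little. It stood at 75.3 and 76.1 units in C57BL/6 testes, 86.2 and 130.7 in AKR/N testes and 85.6 and 79.6 in MRL/MpJ testes. The arrays did not overlap between strains, yet AKR/N array 1 was within 1 unit of the higher MRL/MpJ array. The differences were 0.10 in MRL/MpJ and 0.42 in AKR/N, each against C57BL/6, with an SE of 0.172. That of AKR/N rested mainly on array 2, with 108 ± 31.4 units as the mean, and was 0.16 without that array.

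Counted together, 9 of the 11 probe sets on 5 of the 6 genes passed the filter on dim probe sets. In MRL/MpJ against C57BL/6, 3 of these 9 lay above C57BL/6 without overlap and 3 below it, where 27.5% and 24.7% of all tested probe sets did so. In AKR/N against C57BL/6 the counts were 5 above and 1 below, against 26.2% in each direction. Between MRL/MpJ and AKR/N they were 1 and 3, against 26.9% and 23.7%. With 2 arrays per strain, separation without overlap is common across the platform, and in MRL/MpJ against C57BL/6 the count is near that background in both directions. The median difference over the 11 probe sets was -0.34, 0.19 and -0.15 in the 3 comparisons, against 0.01, -0.00273 and 0.02 over all tested probe sets. These medians describe no shift of the family. Each was the difference of a single Fcgr2b probe set (1435477_s_at, 1451941_a_at and 1447622_at in turn), and Fcgr2b supplies 5 of the 11. The 11 also include probe sets that failed the filter, such as 1447622_at. Over all tested probe sets, limma called 10% in MRL/MpJ against C57BL/6 (5.07% higher and 4.95% lower), 9.97% in AKR/N against C57BL/6 (5.09% and 4.88%) and 6.91% in MRL/MpJ against AKR/N (3.22% and 3.69%). By gene, the shares were 12.1%, 11.8% and 8.7%. The 3 comparisons share arrays and are not independent.

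**Figure D2:**
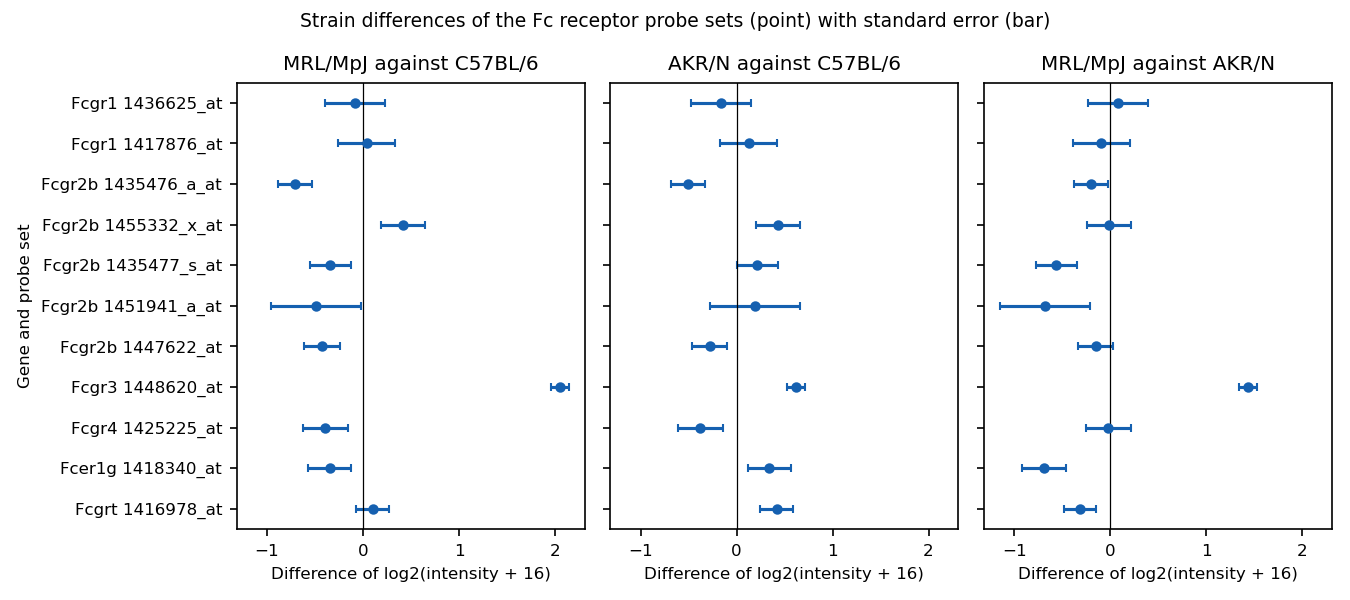
Differences of log2(intensity + 16) between strains for the 11 probe sets, with points for the differences and bars for their standard errors. Fcgr3 stands at 2.05, 0.62 and 1.44 in the 3 panels, while the 5 Fcgr2b probe sets spread from -0.71 to 0.41 in MRL/MpJ against C57BL/6.

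The genes next to the receptors on the chromosome were examined to see whether Fcgr3 shared its difference with its surroundings. For each receptor the 10 nearest protein-coding genes on either side with a probe set of their own were taken, 66 genes in all with 61 tested. On chromosome 1, of 24 tested neighbours 5 were lower and 0 higher in MRL/MpJ than in C57BL/6 by limma (8 and 1 at an unadjusted p under 0.05), where 6.08% and 6.06% of 14477 genes were called lower and higher. With either MRL/MpJ array left out, 3 neighbours were called in place of 5. The median difference of the 24 was -0.08 and the largest in size was that of Uhmk1, a serine/threonine kinase, at 44.3 ± 0.546 against 150.2 ± 7.95 units (-1.46, SE 0.13, adjusted p = 5.27e-05).

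Arhgap30, a gene of blood cells, stood at 32.8 ± 3.37 units in MRL/MpJ and 30.1 ± 2.55 in AKR/N against 115 ± 17.9 in C57BL/6. It fell by 1.42 in MRL/MpJ (adjusted p = 0.000522) and by 1.502 in AKR/N (adjusted p = 0.000348). Spata46, a sperm nuclear protein, fell by 0.38 in MRL/MpJ (adjusted p = 0.00449, and 0.0997 without the variance trend). The phosphatase Dusp12 (-0.61, adjusted p = 0.0176) and the heme synthesis enzyme Ppox (-0.76, adjusted p = 0.0453) were also called in MRL/MpJ. The call for Dusp12 was lost without C57BL/6 array 1 (adjusted p = 0.0787), MRL/MpJ array 1 (0.0593) or MRL/MpJ array 2 (0.1), and that for Ppox without any 1 of the 6 arrays (0.0695 to 0.178). Averaged over their probe sets Uhmk1, Arhgap30 and Dusp12 differed by -0.96, -1.21 and -0.38.

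The tested neighbour nearest to Fcgr3 on either side was not called in MRL/MpJ against C57BL/6. Cfap126, a cilium protein and the nearest tested neighbour on 1 side, differed by -0.07 in MRL/MpJ against C57BL/6 (adjusted p = 0.577), and Sdhc, a subunit of succinate dehydrogenase, by -0.19 (adjusted p = 0.142). On the other side, beyond Fcgr4 and Fcgr2b, Fcrla differed by 0.06 (adjusted p = 0.92). Dusp12, beyond Fcrla, was called lower, as given above (-0.61, adjusted p = 0.0176). Apoa2, an apolipoprotein, had the largest difference above 0 among the chromosome 1 neighbours, at 1.22, but was not called (adjusted p = 0.0661). It read 5.35 and 44.5 units in C57BL/6 against 69.2 and 66.7 in MRL/MpJ, so the C57BL/6 arrays disagreed.

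In AKR/N against C57BL/6, 1 of the 24 chromosome 1 neighbours was higher and 1 lower, against 6.33% and 5.45% of all genes. The first was Dedd, a death effector domain protein (0.44, adjusted p = 0.014), and the second Arhgap30. Between MRL/MpJ and AKR/N 0 were higher and 5 lower by limma (0 and 9 at an unadjusted p under 0.05), against 3.65% and 5.05%. Uhmk1 fell by 1.10 (adjusted p = 0.000636), Dusp12 by 0.85 (adjusted p = 0.00455) and Dedd by 0.54 (adjusted p = 0.00694). The call for Dedd was lost without C57BL/6 array 2 (adjusted p = 0.0873) or AKR/N array 1 (0.122) in the first comparison, and without AKR/N array 1 (0.0727) or MRL/MpJ array 2 (0.0688) in the second. Averaged over its probe sets Dedd differed by 0.17 and -0.30, while Uhmk1 and Dusp12 differed by -0.68 and -0.55 between MRL/MpJ and AKR/N. Over all neighbours of the 6 genes, 11 were called between MRL/MpJ and AKR/N. Without AKR/N array 1 or MRL/MpJ array 2 there were 3 calls, without AKR/N array 2 there were 5 and without MRL/MpJ array 1 there were 4.

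**Figure D3:**
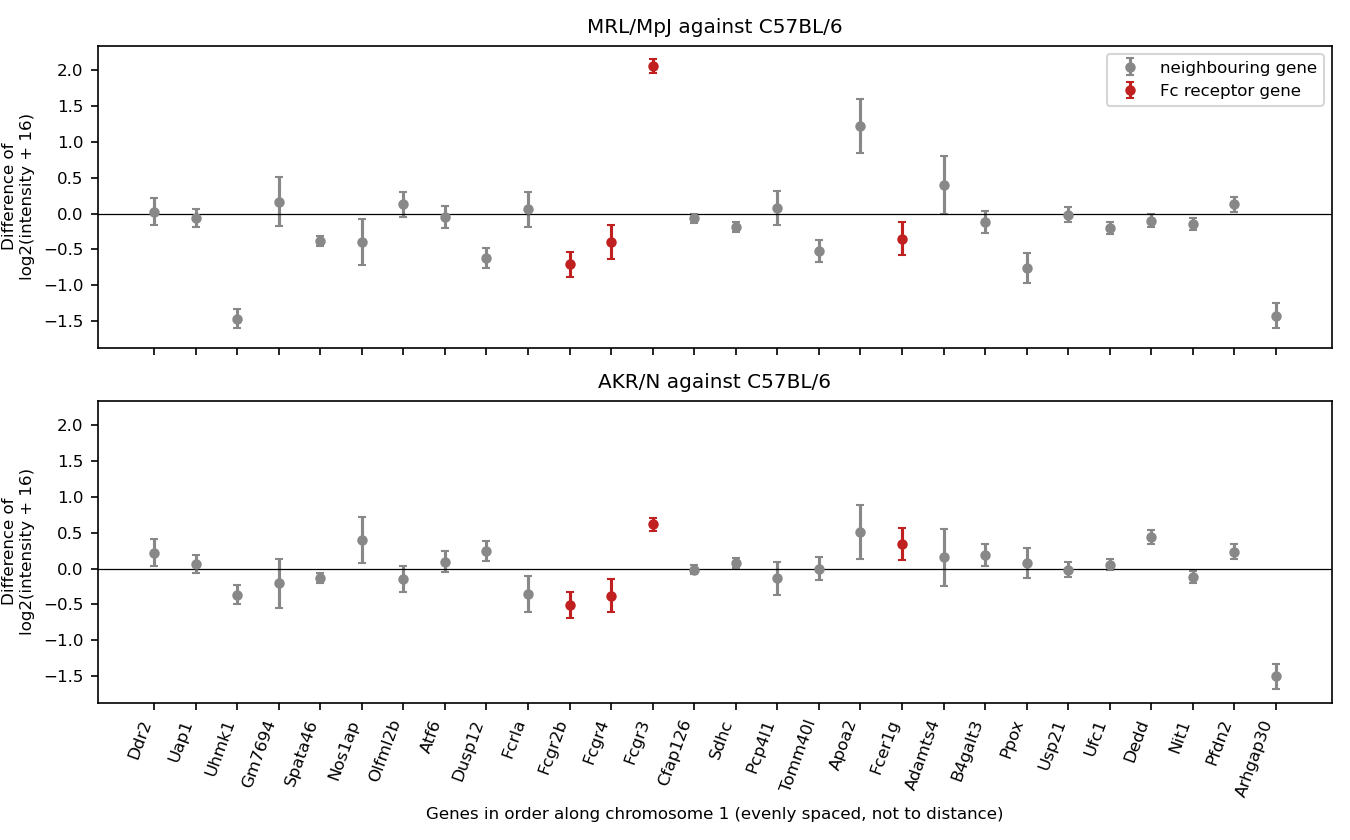
Differences of log2(intensity + 16) with standard errors for Fc receptor genes (red) and tested neighbouring genes (grey), in their order along chromosome 1, for MRL/MpJ and AKR/N against C57BL/6. Fcgr3 stands at 2.05 and 0.62, while Fcgr2b and Fcgr4 beside it lie at -0.71 and -0.39 in MRL/MpJ.

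Around Fcgr1, 0 of 18 tested neighbours were called in MRL/MpJ against C57BL/6 by limma (1 higher and 2 lower at an unadjusted p under 0.05). Around Fcgrt, 0 of 19 were (0 and 1). Over all genes 6.06% were called higher and 6.08% lower there. In AKR/N the solute carrier Slc6a16, near Fcgrt, stood at 43.1 ± 0.968 units against 251 ± 4.40 in C57BL/6 and 250.3 ± 11.9 in MRL/MpJ. It fell by 2.18 in AKR/N against C57BL/6 (adjusted p = 8.01e-07) and differed by 2.17 in MRL/MpJ against AKR/N (adjusted p = 1.27e-06). Near Fcgrt, Bcl2l12 (-0.62, adjusted p = 0.00272) and Nosip (0.50, adjusted p = 0.00497, and 0.0608 without AKR/N array 2) also differed in AKR/N against C57BL/6. Near Fcgr1, the deubiquitinase Otud7b did so (-0.46, adjusted p = 0.00833, and 0.0768 without AKR/N array 1). Between MRL/MpJ and AKR/N, Otud7b differed by 0.41 (adjusted p = 0.0198) and Bcl2l12 by 0.50 (adjusted p = 0.0135). Each of these 2 calls was lost without any 1 of the 4 arrays compared, at adjusted p of 0.0556 to 0.153 and 0.0796 to 0.0883. Averaged over their probe sets against C57BL/6, Bcl2l12, Nosip and Otud7b differed by -0.31, 0.33 and -0.10 in AKR/N, and between MRL/MpJ and AKR/N Otud7b differed by 0.15.

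Macrophages carry most of these receptors, and none of their tested markers was called higher in MRL/MpJ. Whether the number of macrophages bears on the Fcgr3 difference was not tested. Over all genes, 6.06% were called higher and 6.08% lower in MRL/MpJ than in C57BL/6. Of 20 tested macrophage genes, 0 were higher and 2 lower than in C57BL/6 by limma (1 and 6 at an unadjusted p under 0.05), with a median of -0.19 against 0.01 over all genes. Their highest difference was 0.47, that of Cx3cr1, against 2.05 for Fcgr3. The defining markers Adgre1, Csf1r and Mrc1 were well measured. Adgre1 stood at 83.2 ± 9.15, 83.2 ± 4.95 and 70.4 ± 3.09 units in C57BL/6, AKR/N and MRL/MpJ, and Csf1r, the receptor for macrophage growth factor, at 151 ± 14.6, 189 ± 5.58 and 162 ± 1.36 units. The mannose receptor Mrc1 stood at 254 ± 14.5, 258 ± 27.8 and 253 ± 9.90 units. None of the 3 was called in any comparison (adjusted p from 0.127 to 0.995).

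The macrophage genes that differed were lower. Cd14, the co-receptor for lipopolysaccharide, fell by 1.26 in MRL/MpJ against C57BL/6 (adjusted p = 0.011, and 0.0783 without C57BL/6 array 2 and 0.0762 without MRL/MpJ array 2). The galectin Lgals3 fell by 1.10 in MRL/MpJ (adjusted p = 0.0283) and by 1.12 in AKR/N (adjusted p = 0.0268) against C57BL/6. It was above the 40th percentile on 3 arrays. Lgals3 read 55.1 and 45.5 units in C57BL/6, 23.0 and 7.66 in AKR/N and 14.2 and 15.3 in MRL/MpJ. Its call in MRL/MpJ was lost without any 1 of the 4 arrays compared (0.0832 to 0.135), and that in AKR/N without C57BL/6 array 1 (0.12), C57BL/6 array 2 (0.0915) or AKR/N array 2 (0.182). Between MRL/MpJ and AKR/N 0 of the 20 were higher and 1 lower by limma (0 and 3 at an unadjusted p under 0.05). This was Aif1 (-0.41, adjusted p = 0.00663, and 0.0656 without AKR/N array 1, 0.0513 without AKR/N array 2 and 0.0601 without MRL/MpJ array 2). In AKR/N against C57BL/6, 0 were higher and 1 lower (3 and 3 at an unadjusted p under 0.05). Over all genes 6.33% and 5.45% were called higher and lower there, and 3.65% and 5.05% between MRL/MpJ and AKR/N.

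The summed intensity of the 20 genes was 3456 and 3526 units in C57BL/6 testes, 3682 and 3752 in AKR/N testes and 3037 and 3096 in MRL/MpJ testes. MRL/MpJ, with the highest Fcgr3, had the lowest sum without overlap. Aif1 supplied much of the sum. Without it the arrays ran from 1602 to 1687 units in C57BL/6, from 1502 to 1636 in AKR/N and from 1382 to 1511 in MRL/MpJ. MRL/MpJ then overlapped AKR/N and stayed below C57BL/6.

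Natural killer cells and neutrophils also carry Fcgr3. Over all genes, 12.1% were called in MRL/MpJ against C57BL/6, 11.8% in AKR/N against C57BL/6 and 8.7% in MRL/MpJ against AKR/N. Of 11 natural killer cell genes on the platform, 7 did not reach the 40th percentile on any array, Ncr1 and Klrd1 being among the 8 not tested. By limma 0 of 3 tested genes were called in any comparison (at an unadjusted p under 0.05, 1 was higher in AKR/N than in C57BL/6). These 3 were dim too, and 0 of them lay above the 40th percentile on all arrays. Of 12 neutrophil genes, 6 did not reach it on any array and 3 lay above it on all 6 arrays, and S100a8 and S100a9 were not tested. Of the 5 tested, myeloperoxidase (Mpo) was lower in MRL/MpJ than in C57BL/6 (-0.84, adjusted p = 0.049, lost under 12 of the alternatives with adjusted p up to 0.256, and 0.239 without C57BL/6 array 1, 0.0702 and 0.0728 without either AKR/N array, 0.256 without MRL/MpJ array 1, 0.0587 without MRL/MpJ array 2 and 0.0503 with replicate numbers as a block). The iron carrier Lcn2 was bright in all strains, at 1957 ± 153, 1333 ± 288 and 2035 ± 1.44 units in C57BL/6, AKR/N and MRL/MpJ. It differed by -0.56 in AKR/N against C57BL/6 (adjusted p = 0.0128, and 0.0839 without C57BL/6 array 1 and 0.0709 without AKR/N array 1). In MRL/MpJ against AKR/N it differed by 0.62 (adjusted p = 0.0107, and 0.0524 without AKR/N array 1, 0.0617 without MRL/MpJ array 1 and 0.0648 without MRL/MpJ array 2). Without AKR/N array 1 the Lcn2 differences shrank to -0.34 and 0.40.

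B cells carry Fcgr2b, and 0 of 7 tested genes of B cells and plasma cells were called in any comparison by limma (1 higher in MRL/MpJ than in C57BL/6 at an unadjusted p under 0.05). For this list and those that follow, the shares of all genes called in the 3 comparisons were again 12.1%, 11.8% and 8.7%. Of 7 tested mast and dendritic cell genes 1 was called, the transcription factor Gata2 in AKR/N against C57BL/6 (0.61, adjusted p = 0.00379). Among 5 T cell genes Cd3d stood apart, at 143 ± 42.5 units in AKR/N against 1.43 ± 0.375 in C57BL/6 and 1.94 ± 0.518 in MRL/MpJ, while Cd3e differed by -0.44 in AKR/N against C57BL/6 (adjusted p = 0.389). Cd3d differed by 3.16 in AKR/N against C57BL/6 and by -3.12 in MRL/MpJ against AKR/N. It passed the filter on dim probe sets through the 2 AKR/N arrays alone, so its calls by limma are no test of this difference. Of 11 endothelial genes, the cells in which Fcgrt is best known, 0 were called in any comparison by limma (0, 2 and 2 at an unadjusted p under 0.05). Of the 14 testis markers, 2 were higher and 2 lower in MRL/MpJ and 2 and 1 in AKR/N, each against C57BL/6. Between MRL/MpJ and AKR/N 2 and 2 were. Cyp17a1 and Star were higher by 0.83 and 0.60 in MRL/MpJ and by 0.84 and 0.79 in AKR/N. Sycp1 differed by -1.10 in AKR/N against C57BL/6 and 0.73 in MRL/MpJ against AKR/N. Spaca3 differed by -0.38 and -0.43 in MRL/MpJ against C57BL/6 and AKR/N, and Acrv1 by -0.40 against AKR/N.

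**Figure D4:**
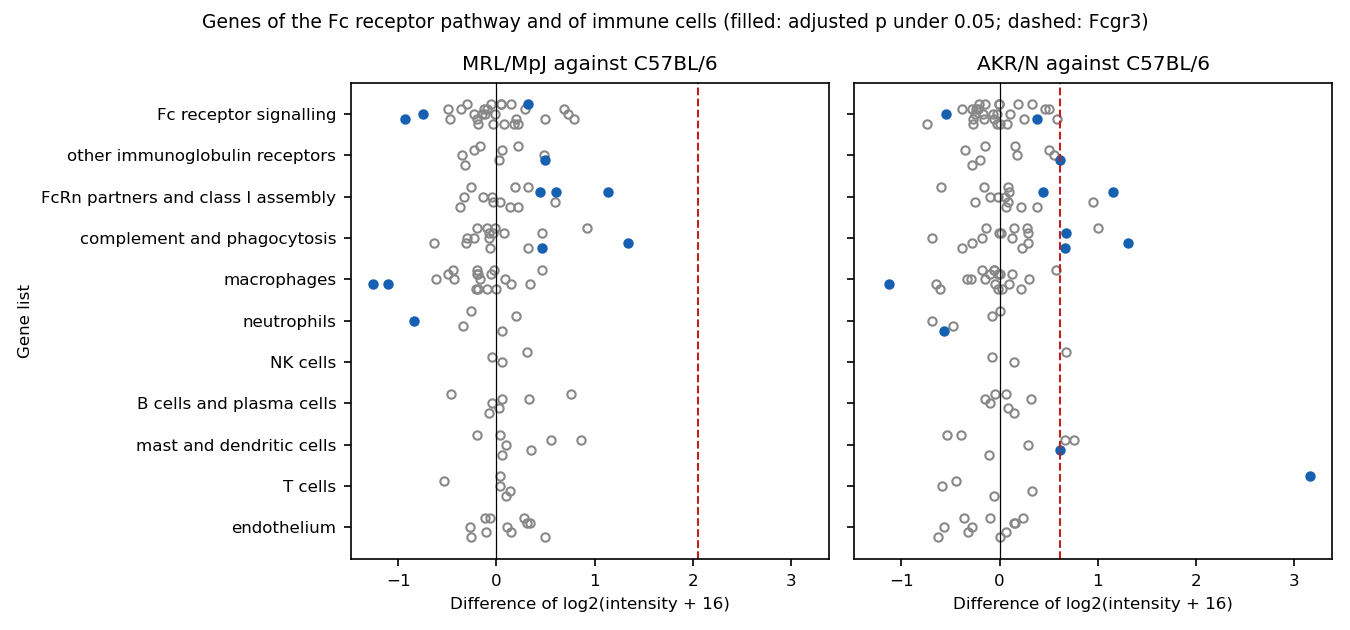
Differences of log2(intensity + 16) in MRL/MpJ and AKR/N against C57BL/6 for tested genes of the pathway and immune cell lists, 1 point per gene, filled where the adjusted p was under 0.05. The dashed line is Fcgr3, at 2.05 in MRL/MpJ, beyond every listed gene, and at 0.62 in AKR/N, where Cd36 at 1.30, Rab4a at 1.16 and Cd3d at 3.16 are among the genes beyond it.

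Genes that carry the receptor signal into the cell were called about as often as other genes in MRL/MpJ against C57BL/6. Of 29 tested signalling genes, 1 was higher and 2 lower (6 and 3 at an unadjusted p under 0.05), where 6.06% and 6.08% of all genes were. In AKR/N against C57BL/6 1 was higher and 1 lower (4 and 3), against 6.33% and 5.45%, and between MRL/MpJ and AKR/N 1 was higher and 1 lower (3 and 3), against 3.65% and 5.05%. The medians were -0.03, -0.06 and 0.01. The kinase Syk, first in the activating path, stood at 26.7 ± 3.46, 23.0 ± 9.50 and 20.3 ± 14.7 units in C57BL/6, AKR/N and MRL/MpJ and was not called in MRL/MpJ against C57BL/6 (-0.29, adjusted p = 0.624).

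Inpp5d, the phosphatase recruited by Fcgr2b, was lower in both strains than in C57BL/6. It stood at 117 ± 2.16 units in C57BL/6 testes, 75.5 ± 1.53 in AKR/N testes and 64.03 ± 13.5 in MRL/MpJ testes, without overlap between C57BL/6 and the others. It fell by 0.75 in MRL/MpJ (adjusted p = 0.0104, and 0.0578 without C57BL/6 array 2 and 0.0847 without MRL/MpJ array 2). In AKR/N it fell by 0.54 (adjusted p = 0.0462, and 0.109 to 0.189 without any 1 of the 4 arrays compared, and 0.0676 with array medians centred).

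Vav3, an exchange factor that acts below the receptors, stood at 43.1 ± 5.11, 40.7 ± 2.67 and 15.0 ± 4.63 units in C57BL/6, AKR/N and MRL/MpJ. It fell in MRL/MpJ by 0.93 against C57BL/6 (adjusted p = 0.0184) and by 0.88 against AKR/N (adjusted p = 0.0329). The first call was lost without C57BL/6 array 1 (0.0906), C57BL/6 array 2 (0.0519) or MRL/MpJ array 1 (0.112), and the second without any 1 of the 4 arrays compared (0.0649 to 0.182). The ubiquitin ligase Cbl was higher in MRL/MpJ by 0.32 and 0.33 (adjusted p = 0.0349 and 0.0416), and by 0.08 and 0.00975 averaged over its probe sets. Its calls were lost with most single arrays left out (adjusted p of 0.0577 to 0.21 without C57BL/6 array 1 or either array of AKR/N or MRL/MpJ, and 0.0923 to 0.235 without either array of AKR/N or MRL/MpJ). Arf6, a small GTPase of phagocytosis, was higher in AKR/N than in C57BL/6 (0.38, adjusted p = 0.0117), and 0.10 averaged over its probe sets. Without C57BL/6 array 2, AKR/N array 1 or AKR/N array 2 it had adjusted p = 0.0825, 0.0515 and 0.103.

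Of 9 tested receptors for other immunoglobulins, 1 was higher and 0 lower in MRL/MpJ and in AKR/N, each against C57BL/6 by limma. Over all genes 6.06% and 6.08% were in MRL/MpJ, and 6.33% and 5.45% in AKR/N. The 1 called was Fcmr, which binds immunoglobulin M. It stood at 104 ± 20.2 units in C57BL/6 testes, 167 ± 3.88 in AKR/N testes and 152 ± 3.49 in MRL/MpJ testes, with differences of 0.61 in AKR/N (adjusted p = 0.0148) and 0.50 in MRL/MpJ (adjusted p = 0.0391). The call in AKR/N was lost without C57BL/6 array 2 (0.0907), AKR/N array 1 (0.0752) or AKR/N array 2 (0.101). The call in MRL/MpJ was lost without C57BL/6 array 2 (0.183), either AKR/N array (0.064 and 0.0651) or either MRL/MpJ array (0.171 and 0.133), and after quantile normalization (0.066). It shrank to 0.32 without C57BL/6 array 2. In MRL/MpJ against AKR/N 0 of the 9 were called by limma (0 at an unadjusted p under 0.05), against 8.7% of all genes. Fcrla, an Fc receptor-like protein of B cells next to Fcgr2b, differed by 0.06 in MRL/MpJ and -0.35 in AKR/N against C57BL/6 (adjusted p = 0.92 and 0.433).

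Complement and phagocytosis genes had 2 of 17 higher and 0 lower in MRL/MpJ, and 3 higher and 0 lower in AKR/N, each against C57BL/6 by limma (5 and 1, and 4 and 0, at an unadjusted p under 0.05). The shares of all genes called higher and lower were 6.06% and 6.08% in MRL/MpJ, and 6.33% and 5.45% in AKR/N. Cd36, a scavenger receptor and fatty acid carrier, stood at 94.5 ± 24.8 units in C57BL/6 testes, 253 ± 2.52 in AKR/N testes and 259.7 ± 0.0863 in MRL/MpJ testes. It rose by 1.34 in MRL/MpJ (adjusted p = 0.000184) and by 1.30 in AKR/N (adjusted p = 0.000219), or by 0.87 and 0.83 averaged over its probe sets. Cd47, the signal that restrains phagocytosis, rose by 0.66 in AKR/N (adjusted p = 0.00732, and 0.0656 without AKR/N array 2). In MRL/MpJ it was higher by 0.47 (adjusted p = 0.0392, and 0.0639 to 0.257 without any 1 array but MRL/MpJ array 1, and 0.0667 after quantile normalization). Averaged over its probe sets Cd47 differed by 0.42 in AKR/N and 0.28 in MRL/MpJ. The scavenger receptor Msr1 rose by 0.67 in AKR/N (adjusted p = 0.0181, and 0.103 without C57BL/6 array 2, 0.0889 without AKR/N array 1 and 0.114 without AKR/N array 2). The complement genes C1qa, C1qb and C1qc differed by -0.19, 0.08 and -0.30 in MRL/MpJ against C57BL/6 (adjusted p = 0.453, 0.776 and 0.379). In MRL/MpJ against AKR/N 0 of the 17 were called by limma (0 higher and 3 lower at an unadjusted p under 0.05). There 3.65% of all genes were called higher and 5.05% lower.

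Partners of Fcgrt and genes of class I assembly had 3 of 15 higher and 0 lower in MRL/MpJ, and 2 and 0 in AKR/N, each against C57BL/6 by limma (5 and 1, and 4 and 1, at an unadjusted p under 0.05). Over all genes, 6.06% were called higher and 6.08% lower in MRL/MpJ, and 6.33% and 5.45% in AKR/N. B2m, the light chain of Fcgrt, stood at 416 ± 97.4, 366 ± 34.6 and 471 ± 16.7 units in C57BL/6, AKR/N and MRL/MpJ and was not called (adjusted p = 0.433, 0.535 and 0.168 in the 3 comparisons). Rab4a, a GTPase of recycling endosomes, stood at 50.0 ± 13.4, 130.3 ± 17.5 and 128 ± 5.95 units, and rose by 1.14 in MRL/MpJ and 1.16 in AKR/N (adjusted p = 0.00151 and 0.00134). Rab11fip2, an adaptor of Rab11 vesicles, rose in MRL/MpJ by 0.60 against C57BL/6 (adjusted p = 0.000886) and by 0.50 against AKR/N (adjusted p = 0.00421, and 0.0525 without AKR/N array 2), or by 0.47 and 0.10 averaged over its probe sets. Pdia3, a chaperone of class I folding, was higher by 0.44 and 0.45 in MRL/MpJ and AKR/N against C57BL/6 (adjusted p = 0.00536, and 0.00491 with 0.053 without AKR/N array 1). Averaged over its probe sets it differed by 0.08 and -0.07, so its direction in AKR/N depended on the probe set.

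The genes with the profile most like Fcgr3 over the 6 arrays were found by the root mean square difference of log2(intensity + 16), each profile centred on its mean, among 25041 tested probe sets with 1 symbol. They were Thrsp at 0.194, Rundc3b at 0.205, Ctse at 0.249, Ptpro at 0.25, Elobl, Ywhaz and Abca14, and Gpaa1 at 0.279. Of all these probe sets, 1 lay within 0.2 of Fcgr3 and 123 within 0.5. Thrsp, a regulator of fat synthesis, read 33.8 and 23.8 units in C57BL/6 testes, 50.0 and 67.6 in AKR/N testes and 171 and 224 in MRL/MpJ testes. It had the same order of strains without overlap as Fcgr3, with 2.25 in MRL/MpJ and 0.74 in AKR/N against C57BL/6. The aspartic protease Ctse, also on chromosome 1, read 106 and 90.4 units in C57BL/6 testes, 137 and 121 in AKR/N testes and 318 and 285 in MRL/MpJ testes. The other tested probe sets of Thrsp and of the phosphatase Ptpro were at 0.299 and 0.345 from Fcgr3, while that of Ctse, with -0.20 in MRL/MpJ against C57BL/6, was at 0.969. The 6 other probe sets of Ywhaz, a 14-3-3 protein, were at 0.728 to 1.35, and the 2 others of Gpaa1 at 0.737 and 1.15. Not all 8 genes had AKR/N clearly between the other strains. In AKR/N against C57BL/6 Elobl and Ptpro differed by 0.03 and 0.05, the smallest of the 8, against 0.62 for Fcgr3. Elobl read between 2.12 and 2.86 units on the C57BL/6 and AKR/N arrays, far below the added 16 units. These 8 genes were chosen by their likeness, which is therefore not a test.

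**Figure D5:**
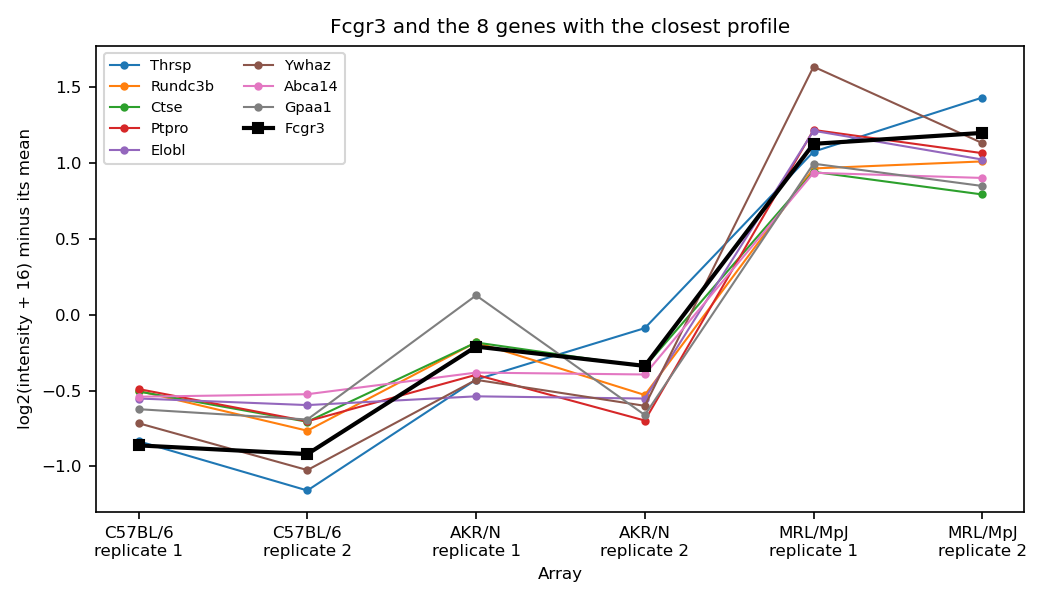
Profiles over the 6 arrays of log2(intensity + 16), each minus its mean, for Fcgr3 (black squares) and the 8 genes closest to it (coloured points and lines). All 9 profiles are highest on both MRL/MpJ arrays, and the closest, Thrsp, lies at a root mean square difference of 0.194.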

How the data were processed

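Trizol extraction of total RNA, a one-cycle cDNA kit and biotin labelling preceded hybridization, per the labels' protocols. Linear intensity values per probe set were deposited by the authors, with a 2% trimmed mean of 125.001 on each of the 6 arrays. The sources used here do not give the summary software or detection calls. Probe sequences were not used, so intensities are not corrected for bases that differ between strains. Arrays were grouped by the strain in their titles, and the series design gives 2 mice per strain.

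Of 45101 probe sets, 64 controls were left out. Log2(intensity + 16) was fitted with limma 3.58.1 in R 4.3.3 (1 mean per strain, all 6 arrays, eBayes with a variance trend) for 29692 probe sets with at least 2 arrays above the 40th percentile. P-values were adjusted by Benjamini-Hochberg over all of these, with calls under 0.05, and the fit was tested on simulated data. SE of probe sets that failed the filter came from a fit of all probe sets. Genes were represented by their tested probe set of the highest mean. Members, lists and tests were chosen with earlier results of these data known. Named genes are the members, up to 3 called genes per list and comparison with the smallest adjusted p, up to 6 called neighbours per comparison, and the 8 profiles closest to Fcgr3. Others were named for their place or role. Symbols were updated through gene IDs of RefSeq GRCm38.p6, whose order gave the neighbours. Promoter sequences are from RefSeq, with all 6 genes matched.

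Alternatives tried were pseudocounts of 1 and 64, a 60th percentile filter and no filter, quantile normalization, centring of medians, no variance trend, only the arrays compared, a replicate block, means over probe sets, and each array left out. Same-numbered arrays did not deviate together (correlations of 0.0425 to 0.0493 between strains), so the numbers were not taken as pairs.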

Additional observations from a re-analysis of the deposited data

How the results depend on the processing

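All 45 Fcgr3 differences under alternatives kept their sign. They moved by more than the replicate spread with a pseudocount of 1 (2.16 in MRL/MpJ against C57BL/6) or 64 (1.78 there, 0.50 in AKR/N against C57BL/6 and 1.28 in MRL/MpJ against AKR/N). Over all members, 408 of 423 differences kept their sign. Of 56 comparisons of named genes, those of the testis markers included, 19 stayed called under every alternative with a test and 34 lost the call without the variance trend. Of the testis markers named, Cyp17a1 in both strains and Sycp1 in AKR/N, each against C57BL/6, were among the 19. The direction of Pdia3 in AKR/N turned to -0.0719 averaged over its probe sets. The called probe sets numbered 2975, 2960 and 2052 in MRL/MpJ against C57BL/6, AKR/N against C57BL/6 and MRL/MpJ against AKR/N. Without the variance trend they were 1212, 1138 and 421, and without the filter 1327 in the last. With 1 array left out they ranged from 1483 to 2545, from 1290 to 2607 and from 694 to 2191. The arrays that cut a count by more than 1.5 times were C57BL/6 replicate 2 (1801 in the first comparison and 1549 in the second), AKR/N replicates 1 and 2 (1479 and 1290 in the second, 900 and 694 in the third) and MRL/MpJ replicates 1 and 2 (1483 and 1561 in the first, 890 and 811 in the third). Centring the medians moved the share of lower calls from 49.4% to 39.4% in the first comparison and from 49.0% to 39.7% in the second. The called neighbours numbered 5, 7 and 11. They were 3 in the second and 3 in the third without the trend, 7 in the third without the filter, and ranged from 3 to 5, from 5 to 7 and from 3 to 10 with 1 array left out. Over all alternatives the called genes ran from 1 to 4, 0 to 4 and 0 to 3 for signalling (3, 2 and 2 as reported), from 2 to 6, 1 to 4 and 0 to 2 for Fcgrt partners (3, 2 and 1), from 1 to 3, 1 to 4 and 0 to 1 for complement and phagocytosis (2, 3 and 0), and from 0 to 3, 0 to 2 and 0 to 1 for macrophages (2, 1 and 1). The cause of these shifts was not tested. With replicate numbers as a replicate block the called probe sets were 3510, 3492 and 2549 and the called neighbours 7, 7 and 12, and the Fcgr3 differences were the same, at 2.05, 0.62 and 1.44. Signal near the dim end of the array limits Fcgr1, Fcgr4, 2 of the Fcgr2b probe sets and the MRL/MpJ readings of Fcer1g. It also limits the MRL/MpJ readings of Lgals3, Vav3, Ppox and Cd14, and the readings of Cd3d outside AKR/N.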
